A study of Mus musculus with 4 samples.

Results

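The genes described here encode solute carriers that move amino acids, sugars and monocarboxylates such as lactate across membranes. They were taken by symbol, as every gene of the families Slc1, Slc2, Slc3, Slc5, Slc6, Slc7, Slc16, Slc36, Slc38 and Slc43 on the array, each represented by the probe set with the highest mean signal. The rule found 101 of 18193 genes. Of these, 4 share a carrier's symbol without naming a carrier (Slc36a1os, Slc6a19os, Slc7a6os and Slc2a4rg-ps), and the counts below are over the other 97. The rule used no difference between the groups.

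RNA came from CD4 T cells in the lamina propria (the connective tissue under the epithelium) of the large intestine, in mice of 129/B6 mixed background. All were GPR15-GFP knock-in heterozygotes, so cells of both groups carried green fluorescent protein (GFP) at 1 allele of Gpr15. The receptor made from Gpr15 draws T cells into the colon. After collagenase digestion the cells were sorted by GFP into GPR15positive (GFP+) and GPR15negative (GFP-) CD4 T cells, with 2 Affymetrix arrays per group, numbered replicate 1 and 2. The labels give neither the age nor the number of mice behind a sample, so that p-values reflect just the spread among these 4 samples, and the small number of arrays limits the precision of every value.

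Activated T cells take up more nutrients than resting ones. Glucose enters mainly through Slc2a1 (GLUT1) and Slc2a3 (GLUT3), and lactate passes through monocarboxylate carriers of the Slc16 family. Large neutral amino acids enter through Slc7a5 (LAT1), which works paired with the heavy chain Slc3a2 (CD98), and glutamine through Slc1a5 (ASCT2) and carriers of the Slc38 family. Rag GTPases and their partners on the lysosome read the amino acid supply and switch on the growth kinase complex mTORC1, while amino acid shortage raises the transcription factor ATF4, which binds an element found in several carrier genes.

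Promoter windows of 300 bases, 250 before and 50 after the transcript start, were at hand from RefSeq (GRCm38.p6) for 71 of the 97 genes, as 94 windows. The ATF4 element TGATGNAA, searched on both strands, lay in 5 of these 94 windows (5.32%) and in 3.97% of all 32851 windows. The E-box CACGTG, which MYC and the lysosomal regulators TFEB and TFE3 can bind, lay in 12 of the 94 (12.8%) and in 7.15% of all windows. None of the 4 windows printed holds both motifs, and the E-box reads the same on both strands. The windows of the cystine carrier Slc7a11 and the neutral amino acid carrier Slc1a4 are shown for the ATF4 element, and those of the lysosomal carrier Slc36a1 and the lactate carrier Slc16a1 for the E-box. Capitals mark each match, and each window reads 5' to 3' along its gene's strand.
Slc7a11, chr3:50443564-50443863, - strand: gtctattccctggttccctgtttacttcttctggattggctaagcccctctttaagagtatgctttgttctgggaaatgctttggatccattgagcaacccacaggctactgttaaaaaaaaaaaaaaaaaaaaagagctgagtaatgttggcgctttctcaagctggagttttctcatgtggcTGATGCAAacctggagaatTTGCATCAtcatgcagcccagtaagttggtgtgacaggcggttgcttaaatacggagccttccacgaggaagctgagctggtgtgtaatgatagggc
Slc1a4, chr11:20332664-20332963, - strand: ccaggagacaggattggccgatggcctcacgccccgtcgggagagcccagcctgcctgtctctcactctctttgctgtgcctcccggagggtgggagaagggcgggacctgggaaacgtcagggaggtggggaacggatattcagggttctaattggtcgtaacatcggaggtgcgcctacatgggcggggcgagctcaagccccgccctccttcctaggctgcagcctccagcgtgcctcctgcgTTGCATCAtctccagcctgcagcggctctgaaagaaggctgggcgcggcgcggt
Slc36a1, chr11:55204090-55204389, + strand: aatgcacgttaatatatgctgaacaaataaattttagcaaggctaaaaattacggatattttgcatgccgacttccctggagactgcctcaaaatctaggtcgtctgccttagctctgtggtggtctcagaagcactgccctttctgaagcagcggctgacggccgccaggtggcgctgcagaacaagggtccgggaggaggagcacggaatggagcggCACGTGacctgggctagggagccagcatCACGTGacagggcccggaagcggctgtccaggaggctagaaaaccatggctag
Slc16a1, chr3:104638414-104638713, + strand: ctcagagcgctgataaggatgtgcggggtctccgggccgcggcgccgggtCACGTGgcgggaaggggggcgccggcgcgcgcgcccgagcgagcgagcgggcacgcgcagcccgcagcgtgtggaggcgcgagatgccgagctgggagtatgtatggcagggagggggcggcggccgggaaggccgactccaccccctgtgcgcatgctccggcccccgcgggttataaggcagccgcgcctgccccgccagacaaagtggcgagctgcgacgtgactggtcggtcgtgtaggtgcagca

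Gpr15 followed the sort, at 619 and 729 in GPR15positive cells, against 146 and 162 in GPR15negative cells, a log2 difference of 2.02 (limma, Benjamini-Hochberg adjusted p = 0.0829). Summed signals of 6 CD4 T cell markers were 13134 and 11176 in GPR15positive cells, against 13301 and 12771 in GPR15negative cells, with Cd4 at 540.0 and 533 in GPR15positive cells, against 501 and 587 in GPR15negative cells. The replicate number also split the sexes: Xist read 4313 and 112 on the GPR15positive arrays 1 and 2, against 4172 and 55.1 on the GPR15negative ones, and the Y-linked Eif2s3y ran the other way. The Dap control probe sets of the array also split by number. AFFX-DapX-3_at read 53.3 and 1285 on the GPR15positive arrays 1 and 2, against 8.59 and 1581 on the GPR15negative ones. The replicate number thus marks more than sex. Since both groups have an array of each number, values within replicate numbers accompany the main results. Median signals over all probe sets were 46.0 and 45.2 on GPR15positive arrays, against 37.0 and 36.1 on GPR15negative arrays, while the trimmed mean was 150.001 on each. Summed signals of 6 B and plasma cell markers were 6994 and 4737 in GPR15positive cells, against 4580 and 5778 in GPR15negative cells. Most of this sum was Jchain, named after its values were seen. Jchain read 6219 and 4093 in GPR15positive cells, against 3852 and 4455 in GPR15negative cells. Marker sums of epithelial and myeloid cells are given where they move with a transporter.

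Across the transporters, no gene passed the test between GPR15positive and GPR15negative cells. Of the 97 genes, 59 lay above a dim threshold of 27.3 signal units and were tested, and 38 (39.2%) lay at or near background, against 32.7% of all genes. By limma with Benjamini-Hochberg adjustment over all 12252 tested genes, 0 of the 59 had an adjusted p under 0.05, where 0.0326% of all genes did, and the smallest adjusted p was 0.234. Without adjustment, 9 transporters had a p under 0.05 with GPR15positive cells higher and 0 with them lower, or 15.3% higher, against 10.2% of all genes higher and 4.37% lower. Of the 9, Slc1a3, Slc2a4 and Slc7a13 lay under the dim threshold in GPR15negative cells and passed the filter only through GPR15positive cells, as did 403 of the 1247 such genes overall. Among genes above the threshold in GPR15negative cells, 6 of 54 transporters (11.1%) were higher at that p, against 7.51% of all such genes. The groups did not overlap, with GPR15positive cells higher, in 18 of the 59 (30.5%, against 28.7% of all genes), 5 of which passed the filter only through GPR15positive cells, and with them lower in 7 (11.9%, against 18.7%). At 1 log2 unit or more without overlap, 1 transporter (Slc2a4, one of those 5) was higher and 0 were lower, against 3.40% and 1.31% of all genes. In bulk RNA such as this, fewer cells of a type and less RNA per cell cannot be told apart.

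Log2 differences, GPR15positive minus GPR15negative on the log2(signal + 16) scale, were small for most carriers. The median over the 59 was 0.20, against 0.07 over all tested genes, and they spanned -0.68 to 1.20. The median was 0.13 within replicate 1 and 0.15 within replicate 2. The difference lay within 0.5 log2 of zero in 42 of 59 (71.2%, against 74.6% of all genes), and had the same sign within both replicate numbers in 33 (55.9%, against 64.5%). GPR15positive cells were higher in 40 of 59 (67.8%, against 57.7%), a share that depended on scaling: 34 under quantile normalization, 32 under cyclic loess and 25 when arrays were scaled to equal medians. Scaling to equal medians moved the median of all genes to -0.20 and that of the transporters to -0.10. Under quantile normalization the median was 0.04 for the transporters and 0.01 for all genes.

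**Figure D1:**
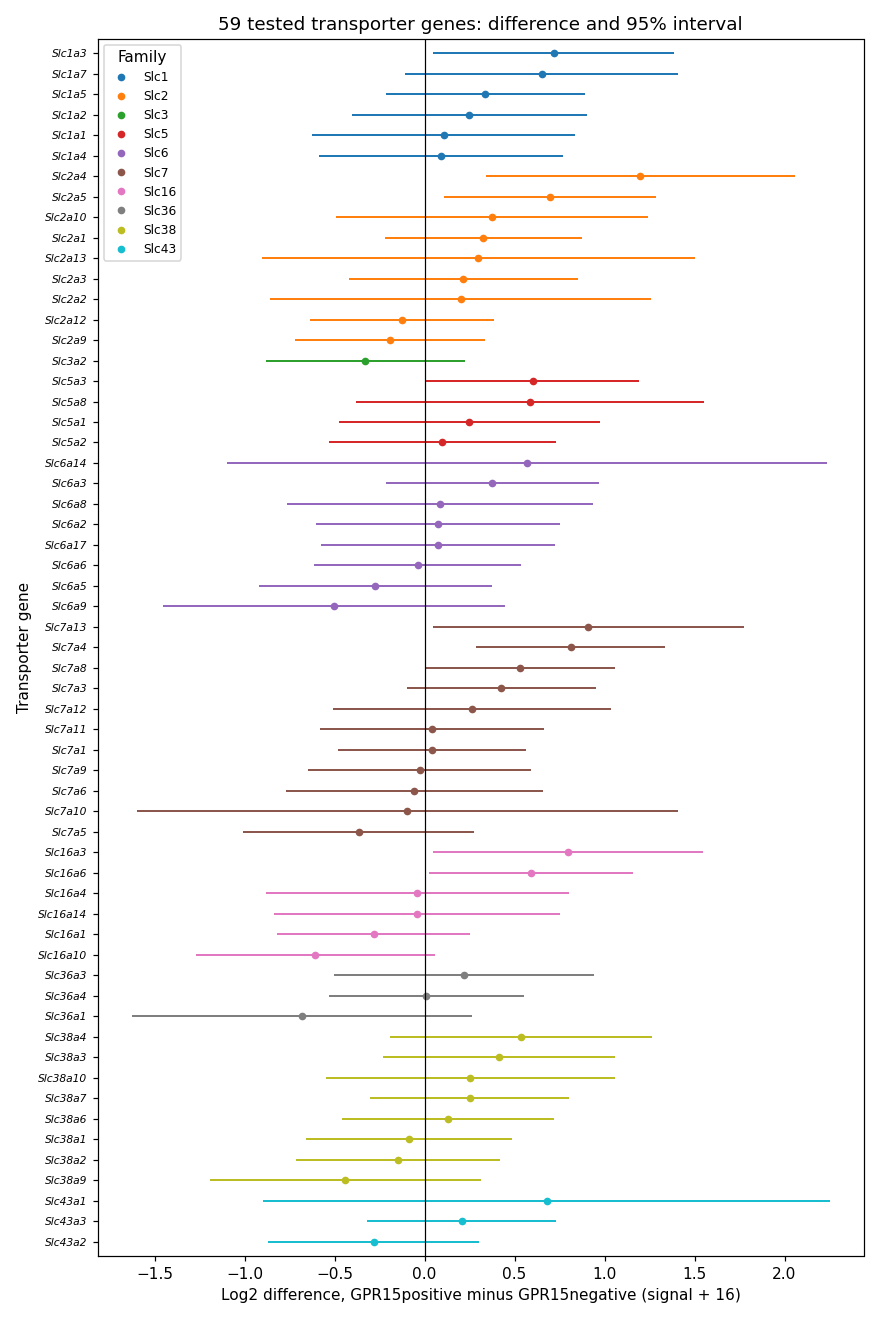
Log2 difference (x axis, GPR15positive minus GPR15negative, on log2(signal + 16)) of each of the 59 tested transporter genes (y axis), ordered within families, which the colours mark. Points are estimates and bars 95% intervals from limma with 2 arrays per group, and the intervals of 9 genes, all higher in GPR15positive cells, leave out zero.

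Higher values in GPR15positive cells lay mostly among the dimmer probe sets. At a mean signal of at least 200, a line drawn after the values were seen, 8 of 16 transporters were higher and 8 lower in GPR15positive cells, with a median of -0.01, against -0.07 for all 4315 genes of that brightness. Between the dim threshold and 200, the median of 43 transporters was 0.25, against 0.18 for 7937 genes. The array medians given above move the same way, and their part in these differences was not tested. Just above the dim threshold lay Slc2a12, a hexose carrier, with a mean signal of 28.4, and Slc7a9, a cystine and basic amino acid carrier, with 27.9. Just below it lay Slc6a11, a GABA carrier, with 27.0, and Slc16a9, with 26.0.

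**Figure D2:**
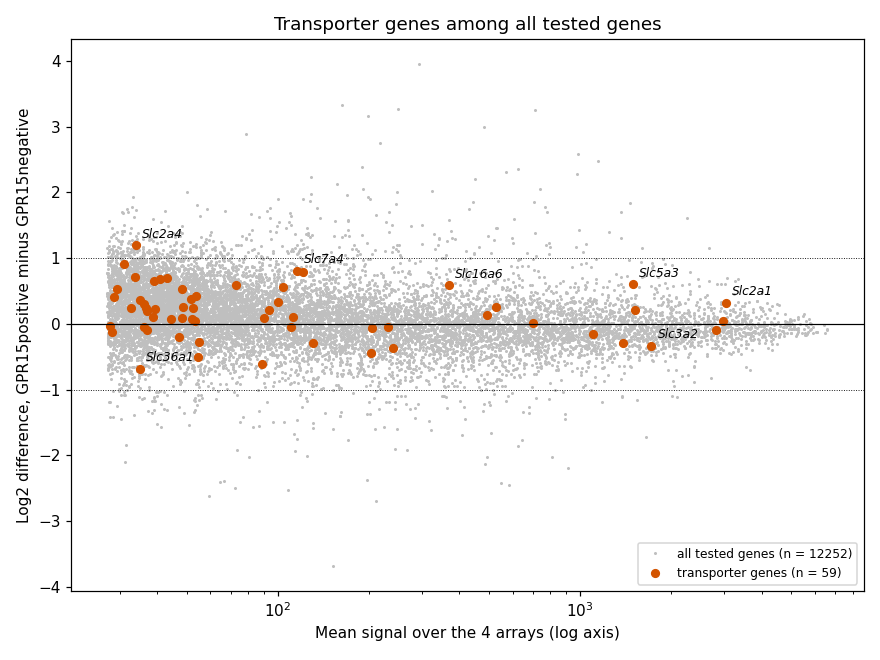
Log2 difference (y axis, GPR15positive minus GPR15negative, on log2(signal + 16)) against the mean signal over the 4 arrays (x axis, log scale) for 12252 tested genes (grey) and the 59 tested transporter genes among them (orange). Dotted lines stand at a log2 difference of 1 and -1, and only Slc2a4 among the transporters lies beyond them.

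Among the sugar carriers, Slc2a1, the main glucose carrier of activated T cells (gene on chromosome 4), read 3482 and 3361 in GPR15positive cells, against 2481 and 2996 in GPR15negative cells. Both GPR15positive arrays lay above both GPR15negative ones, with a log2 difference of 0.33 (95% interval -0.22 to 0.87, limma with Benjamini-Hochberg adjusted p = 0.546). Its other probe sets differed by 0.41 and 0.35 in the same direction. Slc2a3, a high-affinity glucose carrier, read 1777 and 1511 in GPR15positive cells, against 1659 and 1197 in GPR15negative cells, and the groups overlapped. Its difference of 0.21 turned to -0.10 when arrays were scaled to equal medians.

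Slc5a3 imports myo-inositol with sodium and is known to respond to osmotic stress. The gene, on chromosome 16, averaged 1850 ± 62.2 in GPR15positive cells and 1226 ± 246 in GPR15negative cells (SD, n = 2 each), with single arrays at 1894 and 1806 in GPR15positive cells, against 1052 and 1400 in GPR15negative cells. The groups did not overlap, and the log2 difference was 0.60 (95% interval 0.01 to 1.19, limma with Benjamini-Hochberg adjusted p = 0.339), 0.84 within replicate 1 and 0.36 within replicate 2. Its other probe sets differed by 0.58 and 0.41 in the same direction. It was the highest difference among the 16 carriers with a mean signal of at least 200, and it did not pass the test.

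Slc2a4 encodes GLUT4, the insulin-responsive glucose carrier of muscle and fat. The gene lies on chromosome 11, and its signals were low, at 67.7 and 52.6 in GPR15positive cells, against 29.0 and 8.20 in GPR15negative cells. The log2 difference was 1.20 (95% interval 0.35 to 2.05, limma with Benjamini-Hochberg adjusted p = 0.255), with 1 GPR15negative array below the dim threshold. Slc2a5, a fructose carrier, read 54.9 and 63.4 in GPR15positive cells, against 24.6 and 36.7 in GPR15negative cells, with a difference of 0.70 and no overlap. Slc2a9, a urate carrier, read 41.7 and 44.6 in GPR15positive cells, against 55.5 and 47.8 in GPR15negative cells, slightly lower in GPR15positive cells without overlap. Over the 9 tested Slc2 genes the median was 0.30 and 7 were higher. Over the 4 of Slc5 the median was 0.42, and under median scaling these medians were 0.01 and 0.16.

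**Figure D3:**
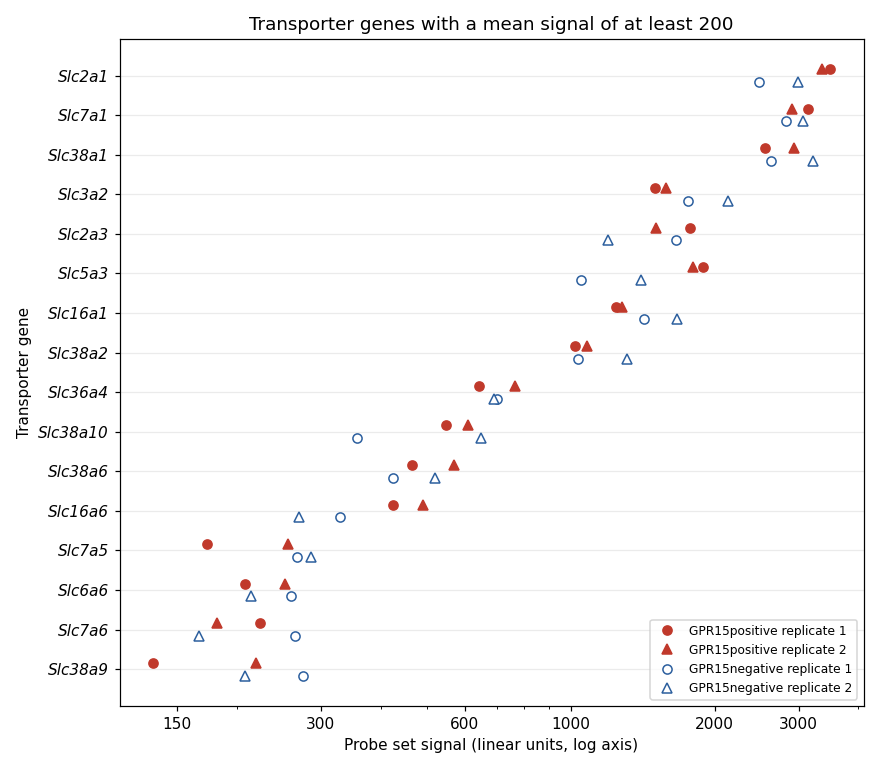
Probe set signal (x axis, linear units on a log axis) of the 16 transporter genes with a mean signal of at least 200 (y axis) on each of the 4 arrays, GPR15positive filled and GPR15negative open, circles for replicate 1 and triangles for replicate 2. The groups separate for Slc2a1, Slc5a3 and Slc16a6 (GPR15positive higher) and for Slc3a2, Slc16a1 and Slc7a5 (GPR15positive lower), and overlap for the other 10. The separated genes are 18.75% of the 16 in each direction, against 18.5% higher and 31.2% lower of all 4315 genes of that brightness.

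The CD98 heavy chain and its main light chain were lower in GPR15positive cells, by amounts that did not pass the test. Slc3a2, on chromosome 19, read 1498 and 1579 in GPR15positive cells, against 1756 and 2137 in GPR15negative cells. Slc7a5, the leucine carrier LAT1, on chromosome 8, read 173 and 256 in GPR15positive cells, against 268 and 286 in GPR15negative cells. For both genes each GPR15positive array lay below each GPR15negative one, as in 31.2% of all 4315 genes with a mean signal of at least 200. The log2 difference of Slc3a2 was -0.33 (95% interval -0.88 to 0.22, limma with Benjamini-Hochberg adjusted p = 0.545), and that of Slc7a5 was -0.36 (95% interval -1.001 to 0.27, adjusted p = 0.565).

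Other light chains of CD98 were read as well. Slc7a6 (y+LAT2), which exchanges arginine for neutral amino acids, read 223 and 182 in GPR15positive cells, against 265 and 167 in GPR15negative cells, with overlap. Its other probe set above the dim threshold read 119 and 127 in GPR15positive cells, against 207 and 155 in GPR15negative cells, lower without overlap at -0.49. Slc7a8 (LAT2), a second carrier of neutral amino acids, named after its values were seen, read 64.4 and 58.0 in GPR15positive cells, against 40.1 and 34.8 in GPR15negative cells, a difference of 0.53 without overlap. Slc7a11, the cystine importer xCT whose promoter holds 2 of the ATF4 elements shown above, read 66.7 and 43.8 in GPR15positive cells, against 56.0 and 48.9 in GPR15negative cells, and the groups overlapped. Slc7a11 differed by 0.04, which became -0.20 with median scaling, -0.17 with cyclic loess and -0.16 with quantile normalization.

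Cationic amino acid carriers, which need no heavy chain, bring arginine and lysine into the cell. Slc7a1 (CAT1) read 3138 and 2906 in GPR15positive cells, against 2825 and 3058 in GPR15negative cells, a difference of 0.04 (95% interval -0.48 to 0.56) with overlap, which turned to -0.28 under median scaling. Slc7a4 resembles these carriers in sequence, and its transport activity is less clear. It lies on chromosome 16 and averaged 159.6 ± 14.8 in GPR15positive cells and 83.9 ± 2.18 in GPR15negative cells (SD, n = 2 each), and single arrays read 149 and 170.1 in GPR15positive cells, against 85.4 and 82.4 in GPR15negative cells. The groups did not overlap, and its log2 difference of 0.81 (95% interval 0.29 to 1.33) carried the smallest adjusted p of any transporter, 0.234 by limma with Benjamini-Hochberg adjustment. It was 0.70 within replicate 1 and 0.92 within replicate 2.

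Also in the Slc7 family, and named after their values were seen, Slc7a3, another cationic carrier, read 68.3 and 61.2 in GPR15positive cells, against 46.6 and 41.6 in GPR15negative cells, and Slc7a13 read 46.7 and 50.1 in GPR15positive cells, against 31.6 and 8.69 in GPR15negative cells. Both were higher in GPR15positive cells without overlap, by 0.43 and 0.91, and 1 GPR15negative array held Slc7a13 below the dim threshold. Over the 11 tested Slc7 genes, the median difference was 0.04, or -0.20 under median scaling, and 7 were higher.

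Carriers of glutamine and small neutral amino acids showed no common direction. Slc1a5 (ASCT2) read 124 and 106 in GPR15positive cells, against 79.8 and 95.5 in GPR15negative cells. Its groups did not overlap, at a log2 difference of 0.34 (95% interval -0.21 to 0.88), while its other probe set above the dim threshold differed by -0.43. Slc38a1 (SNAT1), which takes up glutamine with sodium, read 2555 and 2934 in GPR15positive cells, against 2630 and 3215 in GPR15negative cells. Slc38a2 (SNAT2), known to be raised by amino acid shortage, read 1020 and 1080 in GPR15positive cells, against 1037 and 1309 in GPR15negative cells. Both overlapped between the groups, at -0.09 and -0.15, and the other probe sets of Slc38a2 differed by -0.34 and -0.71.

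Other Slc38 carriers differed in whether the groups overlapped. Slc38a6 read 466 and 570.0 in GPR15positive cells, against 424 and 519 in GPR15negative cells, and Slc38a10 read 549 and 610.3 in GPR15positive cells, against 357 and 650.1 in GPR15negative cells, both with overlap. Their other probe sets above the dim threshold differed by 0.95 for Slc38a6 and by -0.23 to 0.97 for Slc38a10. Higher in GPR15positive cells without overlap were 3 of the 8 tested Slc38 genes (37.5%, against 28.7% of all genes). These 3, dimmer and named after their values were seen, were Slc38a3 at 0.41, Slc38a4 at 0.54 and Slc38a7 at 0.25. Slc38a3 and Slc38a4 lay under the dim threshold in GPR15negative cells. The median over the 8 tested Slc38 genes was 0.19, or -0.12 under median scaling. All 6 tested Slc1 genes, which also hold the glutamate carriers of the nervous system, were higher in GPR15positive cells, at a median of 0.29, but 4 of the 6 were under quantile normalization, cyclic loess or median scaling. The glutamate carrier Slc1a3, named after its values were seen, read 53.2 and 42.8 in GPR15positive cells, against 16.1 and 30.9 in GPR15negative cells, a difference of 0.72. Its other probe set above the dim threshold differed by 1.26.

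Slc43 carriers move neutral amino acids without sodium, and Slc43a3 is known as a carrier of purine bases. Slc43a2 (LAT4) read 115 and 121 in GPR15positive cells, against 126 and 170.1 in GPR15negative cells, lower in GPR15positive cells without overlap at -0.28, while its other probe set above the dim threshold differed by 0.31. Slc43a3 read 94.9 and 109 in GPR15positive cells, against 84.2 and 88.3 in GPR15negative cells, higher without overlap at 0.21 and turned to -0.07 under median scaling. For Slc43a1, named after its values were seen, 1 GPR15negative array stood below the other 3, with 48.5 and 64.2 in GPR15positive cells, against 74.2 and 6.42 in GPR15negative cells.

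Lysosomal carriers pass amino acids to the mTORC1 sensing machinery. Slc36a1 (PAT1), whose promoter holds 2 E-boxes, read 35.9 and 15.3 in GPR15positive cells, against 69.6 and 32.9 in GPR15negative cells. It was lower in GPR15positive cells within both replicate numbers (-0.72 within replicate 1 and -0.64 within replicate 2), and the groups overlapped. The difference of -0.68 was the lowest of all 59 carriers, with a 95% interval of -1.62 to 0.26 (limma with Benjamini-Hochberg adjusted p = 0.468). The mean log2 value of Slc36a1 in GPR15positive cells lay under the dim threshold, so it passed the filter only through GPR15negative cells. Slc36a4 read 642 and 765 in GPR15positive cells, against 702 and 690.1 in GPR15negative cells, a difference of 0.01 that turned to -0.30 under median scaling. Slc38a9, the arginine sensor that acts on the Rag GTPases, read 134 and 219.9 in GPR15positive cells, against 275 and 208 in GPR15negative cells. Its difference of -0.44 was -0.96 within replicate 1 and 0.07 within replicate 2, and its other probe sets above the dim threshold differed between -0.22 and 0.32.

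Sodium- and chloride-dependent Slc6 carriers bring in taurine, creatine, glycine and neurotransmitters. The taurine carrier Slc6a6 read 208 and 252 in GPR15positive cells, against 259.5 and 214 in GPR15negative cells, with overlap, at a difference of -0.04, while its other probe set above the dim threshold differed by 0.33. The creatine carrier Slc6a8, on chromosome X, read 37.9 and 65.1 in GPR15positive cells, against 63.9 and 32.7 in GPR15negative cells, again with overlap. The glycine carrier Slc6a9 read 24.5 and 70.4 in GPR15positive cells, against 69.6 and 66.3 in GPR15negative cells, where 1 GPR15positive array stood below the other 3. Slc6a5, a neuronal glycine carrier, read 40.6 and 58.1 in GPR15positive cells, against 52.6 and 73.3 in GPR15negative cells, and its other probe set above the dim threshold differed by -0.99. The median over 8 tested Slc6 genes was 0.07 and became -0.17 with median scaling, -0.14 with cyclic loess and -0.13 with quantile normalization. The other 12 of the 20 Slc6 genes were dim.

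Slc6a14, a broad amino acid carrier of colon epithelium on chromosome X, and Slc5a8, a carrier of short-chain fatty acids in colon epithelium, had their highest signal on the same array. Slc6a14 read 279 and 57.0 in GPR15positive cells, against 114 and 59 in GPR15negative cells, and Slc5a8 read 144 and 58.0 in GPR15positive cells, against 52.0 and 61.2 in GPR15negative cells. The GPR15positive replicate 1 array stood above the other 3 for both of these probe sets, and without it the difference of Slc6a14 was -0.44 and that of Slc5a8 0.03. The other Slc6a14 probe set above the dim threshold read 75.6 and 64.9 in GPR15positive cells, against 18.3 and 29.3 in GPR15negative cells, higher on both GPR15positive arrays at 1.13. Summed signals of 10 epithelial markers were 1754 and 439 in GPR15positive cells, against 534 and 600.4 in GPR15negative cells, with 7 of the 10 above the dim threshold and Muc2, Fabp2 and Vil1 below it. The same GPR15positive array was thus highest in the sum of these markers too, though not for Krt20 and Slc26a3. It also held the highest B and plasma cell sum given above. The part of these markers in the 2 carriers' values was not tested. Epcam, one of the markers, was higher on both GPR15positive arrays, at 246 and 175 in GPR15positive cells, against 72.3 and 42.5 in GPR15negative cells. The other tested markers, named after their values were seen, were Krt8, Krt19, Krt20, Cdh1, Car1 and Slc26a3. On the GPR15positive replicate 2 array each of them lay below both GPR15negative arrays. Without the GPR15positive replicate 1 array, the median difference of the 7 tested markers was -0.73, and 1 of them was higher.

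**Figure D4:**
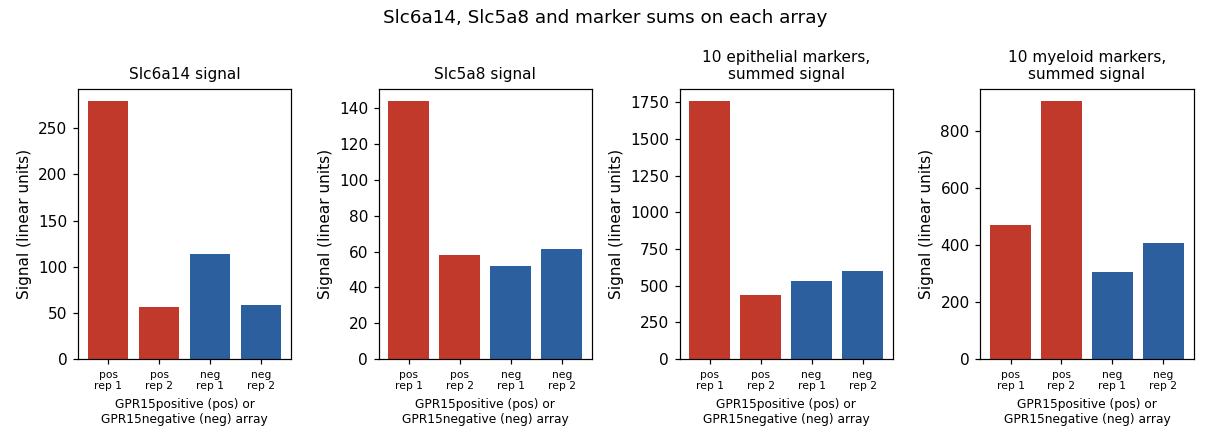
Signals of Slc6a14 and Slc5a8 and summed signals of 10 epithelial and 10 myeloid markers (y axes, linear units from 0) on each of the 4 arrays (x axes, GPR15positive left in red, GPR15negative right in blue). Slc6a14, Slc5a8 and the epithelial sum are highest on the GPR15positive replicate 1 array, and the myeloid sum on the GPR15positive replicate 2 array.

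Monocarboxylate carriers of the Slc16 family went in both directions. Slc16a1 (MCT1), which moves lactate and pyruvate with a proton and holds an E-box in the promoter shown above, read 1245 and 1282 in GPR15positive cells, against 1425 and 1665 in GPR15negative cells. Slc16a3 (MCT4), the lactate exporter of strongly glycolytic cells, on chromosome 11, read 150.2 and 180.4 in GPR15positive cells, against 65.3 and 117 in GPR15negative cells. Slc16a6, named after its values were seen, read 425 and 490.5 in GPR15positive cells, against 329.6 and 269.7 in GPR15negative cells. None of the 3 genes overlapped between the groups, and GPR15positive cells were lower in Slc16a1 and higher in the others.

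The log2 difference was -0.28 for Slc16a1 (95% interval -0.81 to 0.25, limma with Benjamini-Hochberg adjusted p = 0.591), 0.80 for Slc16a3 (0.05 to 1.54, adjusted p = 0.325) and 0.59 for Slc16a6 (0.03 to 1.15, adjusted p = 0.334). Slc16a10 (TAT1), a carrier of aromatic amino acids, named after its values were seen, read 79.4 and 59.6 in GPR15positive cells, against 93.9 and 136 in GPR15negative cells, lower in GPR15positive cells at -0.61. Over the 6 tested Slc16 genes the median was -0.04, and 7 of 13 were dim.

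From the tested carriers outside the naming rule, Slc1a3, Slc1a7, Slc5a8, Slc7a3, Slc7a8, Slc7a13, Slc16a6 and Slc16a10 were set aside. They were taken for an unadjusted p under 0.05 by limma or after their values were seen. The 20 carriers left had mean signals from 28.8 to 112 and log2 differences from -0.10 to 0.68. Of these 20, 17 were higher in GPR15positive cells, where 67.0% of all tested genes with a mean signal under 200 were higher. The lowest unadjusted p among the 20 was 0.118 by limma, but genes under 0.05 had been set aside beforehand. Slc1a4 (ASCT1), among the 20, whose promoter holds an ATF4 element, read 119 and 73.3 in GPR15positive cells, against 91.1 and 83.0 in GPR15negative cells, with overlap at 0.09. Slc1a7, a glutamate carrier of the retina, named after its values were seen, read 56.1 and 50.1 in GPR15positive cells, against 41.2 and 17.8 in GPR15negative cells, higher without overlap at 0.65.

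Partner proteins that carry transporters to the surface were measured beside them. Of 12 listed, 8 were on the array and tested, 0 passed, and the median difference was 0.15, or -0.16 under median scaling. Emb (embigin), a chaperone of Slc16 carriers, read 2488 and 2314 in GPR15positive cells, against 2335 and 1970 in GPR15negative cells. Cd44, the hyaluronan receptor that binds xCT, read 3835 and 3260 in GPR15positive cells, against 3596 and 2888 in GPR15negative cells. Both overlapped, while Nptn (neuroplastin), a relative of the Slc16 chaperone basigin, read 603 and 589.8 in GPR15positive cells, against 674 and 629 in GPR15negative cells and was slightly lower without overlap.

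Of the 38 dim carriers, which were not tested, 9 belong to Slc5, 12 to Slc6 and 7 to Slc16. They are Slc1a6, Slc2a6, Slc2a8, Slc3a1, Slc5a4a, Slc5a4b, Slc5a5, Slc5a6, Slc5a7, Slc5a9, Slc5a10, Slc5a11, Slc5a12, Slc6a4, Slc6a7, Slc6a11, Slc6a12, Slc6a13, Slc6a15, Slc6a16, Slc6a18, Slc6a19, Slc6a20a, Slc6a20b, Slc6a21, Slc7a2, Slc7a7, Slc7a14, Slc7a15, Slc16a5, Slc16a7, Slc16a8, Slc16a9, Slc16a11, Slc16a12, Slc16a13, Slc36a2 and Slc38a5. Slc5a6, the carrier of biotin and pantothenate, read 3.72 and 18.7 in GPR15positive cells, against 22.4 and 20.6 in GPR15negative cells. A value near background gives only a bound on the level. Slc2a6, a lysosomal hexose carrier of myeloid cells, named after its values were seen, read 24.9 and 63.9 in GPR15positive cells, against 8.91 and 3.85 in GPR15negative cells. It was highest on the GPR15positive replicate 2 array, as was the sum of 10 myeloid markers, at 469.9 and 903 in GPR15positive cells, against 306.5 and 409 in GPR15negative cells, with 7 of the 10 above the dim threshold and Itgam, Adgre1 and C1qa below it. The part of myeloid RNA in it was not tested.

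Among the genes that sense amino acids and act on mTORC1, several were at least 1 log2 unit higher in GPR15positive cells, though none passed the test. Of 36 listed, 33 were on the array and 32 were tested. The list was chosen with earlier results of these data known, so its shares below are a description and not a test. By limma with Benjamini-Hochberg adjustment 0 passed, while without adjustment 7 had a p under 0.05 and were higher (21.9%, against 10.2% of all genes), and 0 were lower (against 4.37%). Of the 7, Nprl3 lay under the dim threshold in GPR15negative cells. At 1 log2 unit or more without overlap, 5 of 32 were higher (15.6%, against 3.40% of all genes) and 0 lower, and the median was 0.15, or -0.13 under median scaling. The count of 5 became 3 under quantile normalization or cyclic loess, 2 with a pseudocount of 64, and 1 under median scaling or when a gene's probe sets were averaged.

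The 5 genes serve different steps. Fnip2, a partner of folliculin, which acts on the Rag GTPases RagC and RagD, read 653 and 412 in GPR15positive cells, against 202 and 147 in GPR15negative cells, at a log2 difference of 1.51. Rragd, which encodes RagD itself, read 670.4 and 491 in GPR15positive cells, against 228 and 232 in GPR15negative cells, at 1.26. Castor2, a relative of the arginine sensor CASTOR1, read 299 and 259 in GPR15positive cells, against 144 and 94.7 in GPR15negative cells, at 1.14, while its other probe set above the dim threshold differed by 0.19. The probe sets of these 3 genes first given lay well above it on every array.

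Sesn2, a leucine sensor that holds back mTORC1, read 87.3 and 90.0 in GPR15positive cells, against 42.7 and 25.6 in GPR15negative cells, at 1.08. Tbc1d7, a subunit of the TSC complex that switches mTORC1 off, read 80.4 and 84.3 in GPR15positive cells, against 32.6 and 33.1 in GPR15negative cells, at 1.01. The adjusted p of the 5 genes ran from 0.167 to 0.214 (limma, Benjamini-Hochberg). The related sestrin Sesn1 read 1653 and 1353 in GPR15positive cells, against 964 and 1058 in GPR15negative cells, higher without overlap at 0.56, and Nprl3, of the GATOR1 complex that also holds mTORC1 back, differed by 0.83. Sesn3, named after its values were seen, read 403 and 396 in GPR15positive cells, against 554 and 557 in GPR15negative cells, lower without overlap at -0.46.

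Parts of the machinery with strong signals differed little. Flcn (folliculin) read 3226 and 3687 in GPR15positive cells, against 3028 and 3912 in GPR15negative cells, and Seh1l, of the GATOR2 complex, read 1698 and 1873 in GPR15positive cells, against 1677 and 1867 in GPR15negative cells, both with overlap. Fnip1, the other folliculin partner, read 2078 and 2139 in GPR15positive cells, against 1929 and 2075 in GPR15negative cells, higher without overlap at a difference of 0.08 that turned to -0.24 under median scaling. Of the kinase complex itself, Mlst8 and Rptor, named after their values were seen, were higher without overlap at 0.22 and 0.49, and Mtor overlapped at 0.09.

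**Figure D5:**
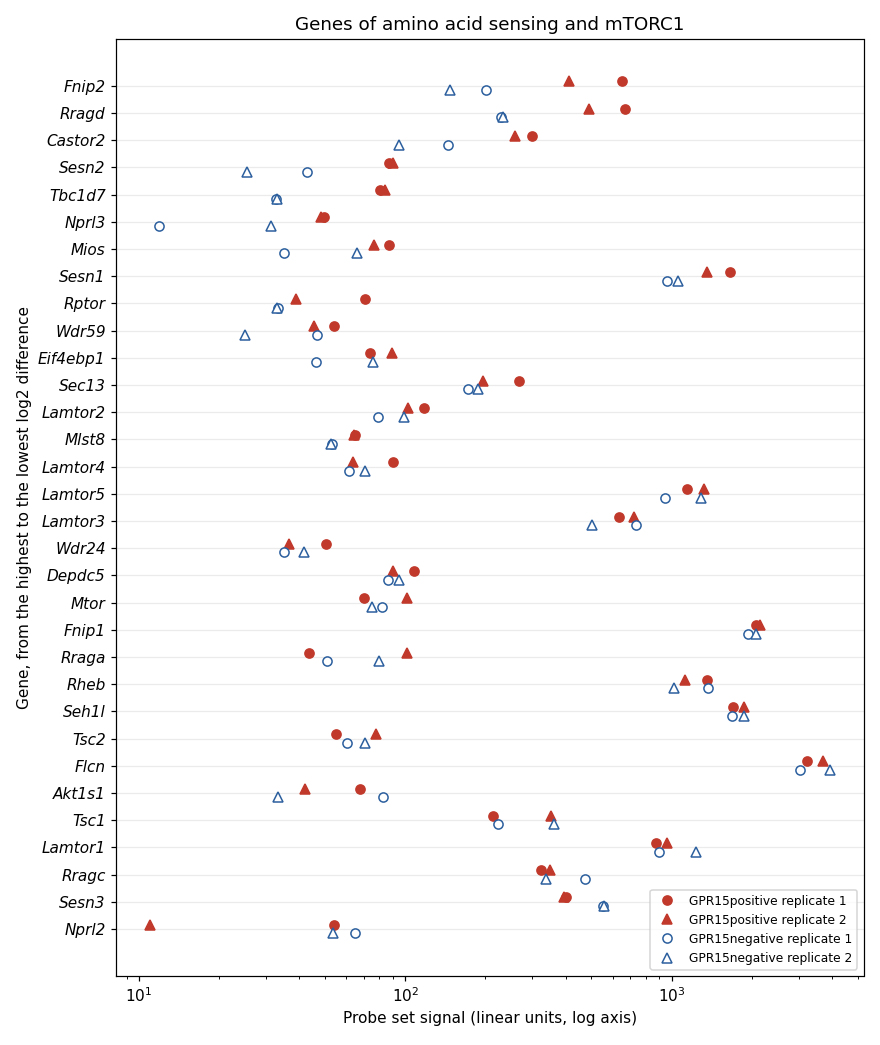
Probe set signal (x axis, linear units on a log axis) of the 32 tested genes of amino acid sensing and mTORC1 (y axis, from the highest to the lowest log2 difference) on each of the 4 arrays, GPR15positive filled and GPR15negative open. The groups lie apart for the 5 genes at the top, at least 1 log2 unit higher in GPR15positive cells, and overlap for most of the others.

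Genes of the amino acid shortage response, led by ATF4, included some higher and some lower in GPR15positive cells. Of 20 listed, 16 were tested, 0 passed, and the median was -0.05. By limma without adjustment, 2 of the 16 were higher at p under 0.05 (12.5%, against 10.2% of all genes). At that p, 3 of the 16 were lower, against 4.37% of all genes. Atf4 itself read 1651 and 1248 in GPR15positive cells, against 1757 and 1585 in GPR15negative cells, with overlap. Asns (asparagine synthetase) read 206 and 149.6 in GPR15positive cells, against 67.4 and 96.2 in GPR15negative cells, and Chac1, which breaks down glutathione, read 45.2 and 66.7 in GPR15positive cells, against 23.6 and 25.8 in GPR15negative cells. Both were higher in GPR15positive cells without overlap, by 0.99 and 0.81. Chac1, 1 of the 2 counted above, lay under the dim threshold on both GPR15negative arrays and passed the filter only through GPR15positive cells.

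Lower in GPR15positive cells without overlap were Mthfd2, of mitochondrial one-carbon metabolism, at 316 and 399.6 in GPR15positive cells, against 612 and 628 in GPR15negative cells, and Psat1, of serine synthesis, at 453 and 441 in GPR15positive cells, against 699 and 623 in GPR15negative cells. The stress factor Ddit3 (CHOP) read 81.4 and 53.8 in GPR15positive cells, against 130.5 and 102 in GPR15negative cells. Their log2 differences were -0.78, -0.55 and -0.68, with adjusted p of 0.259, 0.332 and 0.336 (limma, Benjamini-Hochberg). These values rest on 1 probe set per gene: the other probe set above the dim threshold differed by 0.06 for Mthfd2, -0.12 for Psat1 and 0.02 for Ddit3. With probe sets averaged, 2 genes of the list had a p under 0.05 without adjustment, both higher, and the median was 0.13.

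Enzymes that use the carried amino acids showed a median difference near zero. Of 25 listed, 18 were tested, 0 passed, and the median was 0.01, or -0.25 under median scaling. By limma without adjustment, 1 of the 18 was lower and 0 higher at p under 0.05, against 4.37% and 10.2% of all genes. The lower gene was Bcat1, which starts the breakdown of branched-chain amino acids. It read 157 and 208 in GPR15positive cells, against 282 and 438 in GPR15negative cells, a difference of -0.90 without overlap. Its other probe sets, all dim, differed by 0.08 to 0.68, the other way. With probe sets averaged, 0 of the 18 genes had a p under 0.05 by limma without adjustment. Glul (glutamine synthetase), Odc1 (polyamine synthesis) and Sat1 (polyamine breakdown) overlapped between the groups, with Glul at 3929 and 3382 in GPR15positive cells, against 3454 and 3816 in GPR15negative cells.

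Of 20 listed genes of hexose phosphorylation and lactate handling, 15 were tested and 0 passed, with a median of 0.10, or -0.20 under median scaling. Pdk1, a kinase that inhibits pyruvate dehydrogenase, read 676 and 628 in GPR15positive cells, against 1153 and 883 in GPR15negative cells, lower without overlap at -0.62. Txnip, which removes glucose carriers from the surface, read 2672 and 2322 in GPR15positive cells, against 3558 and 3256 in GPR15negative cells, lower without overlap at -0.45. Ldha (lactate dehydrogenase) read 1642 and 1918 in GPR15positive cells, against 1590 and 1684 in GPR15negative cells, and Pfkp (phosphofructokinase) read 974 and 1018 in GPR15positive cells, against 937 and 1128 in GPR15negative cells, both with overlap.

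Of 9 listed genes of creatine and taurine handling, 3 were tested and none of them passed, with the other 6 dim. Ckb (brain-type creatine kinase) read 77.0 and 87.0 in GPR15positive cells, against 74.6 and 82.3 in GPR15negative cells, and Ado, which makes hypotaurine from cysteamine, read 102 and 80.7 in GPR15positive cells, against 80.7 and 107 in GPR15negative cells. Ckmt1, a mitochondrial creatine kinase, read 159.8 and 37.4 in GPR15positive cells, against 44.7 and 13.0 in GPR15negative cells. Ckmt1 was highest on the GPR15positive replicate 1 array. That array also held the highest epithelial and B and plasma cell marker sums given above, and the part of those markers was not tested.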

How the data were processed

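Total RNA extracted with Trizol was hybridised to 4 Affymetrix mouse arrays, 2 per group, per the labels' protocols, and group and replicate number came from the sample titles. The deposited value of a probe set on an array is an intensity on a linear scale. How the authors summarised it is not given in the sources used here. With 2% cut from each tail, mean intensity was 150.001 on every array, while array medians differed.

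Intensities were taken to log2 after adding 16, so differences of dim genes are understated. Genes were named through the platform annotation, which can be old. Of 45101 probe sets, 34945 had 1 symbol, 932 several and 9211 none. Where a gene had several probe sets, the one with the highest mean was used. Genes whose mean log2 value lay above the 40th percentile of the non-control probe sets, a signal of 27.3, were tested. A further 6 RefSeq symbols that match the gene families had no single-symbol probe set and were not analysed here.

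Two-sided tests between the groups used lmFit and eBayes of limma 3.58.1 in R 4.3.3, fitting the group alone, with Benjamini-Hochberg adjustment over 12252 genes. Residual degrees of freedom were 2, prior ones 3.74, and the fit was tested on simulated data. Values on every array are given for tested members at least 1 log2 unit apart without overlap, the brightest of each family, a set known in T cells and those next to the dim threshold. In the other lists, genes at least 1 log2 unit apart without overlap and the 3 brightest are named. Asns, Chac1, Ddit3, Bcat1, Pdk1, Nprl3, Sesn1, Slc5a8, Epcam and the genes marked so in the text fall outside these rules and were named after their values were seen. The gene families, lists and named genes were chosen with earlier results of these data known. Signals of different probe sets are not levels of RNA that can be set against each other. Alternatives were other pseudocounts, normalizations and filters, averaging a gene's probe sets, a replicate block, trend and robust settings, and leaving out each array.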

Additional observations from a re-analysis of the deposited data

How the results depend on the processing

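With limma, no transporter had a Benjamini-Hochberg adjusted p under 0.05 under any alternative, while 2 to 11 had an unadjusted p under 0.05. Their lowest adjusted p ran from 0.119 to 0.471. Over all genes the 4 calls became 0 with a pseudocount of 1, under quantile normalization, cyclic loess or median scaling, without the dim filter and with the replicate block, where 1463 to 2189 genes had an unadjusted p under 0.05. There were 175 calls with a pseudocount of 64, 50 above the 60th percentile, 8 with probe sets averaged and 240 with trend and robust settings. Leaving out 1 array gave 0 calls each time (1211 to 1451 genes at an unadjusted p under 0.05).

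The median transporter difference was 0.22 with a pseudocount of 1, 0.12 with 64, 0.039 under quantile normalization, 0.038 under cyclic loess, -0.10 under median scaling, 0.11 without the filter, 0.066 above the 60th percentile and 0.24 with probe sets averaged. It was 0.13 with the 4 symbols that name no carrier, an alternative chosen after seeing the data, and 0.10 to 0.21 without 1 array. The count of transporters at least 1 log2 unit higher without overlap was 3 with a pseudocount of 1, 2 without the filter or with probe sets averaged, 0 with a pseudocount of 64, cyclic loess, median scaling or the 60th percentile, and 1 to 4 without 1 array. The count lower was 0 to 2 without 1 array. Median scaling turned the split of all genes at least 1 log2 unit apart into 164 higher and 406 lower, from 416 and 161.

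Signs turned for these genes. Under quantile normalization and cyclic loess, Slc6a8 gave -0.12 and -0.14, Slc7a11 -0.16 and -0.17, Ckb -0.088 and -0.079, Cd4 0.051 and 0.049, and Pfkp 0.0092 and 0.024. Under median scaling, Slc6a8 gave -0.15, Slc7a11 -0.20, Slc2a3 -0.10, Slc36a4 -0.30, Slc38a10 -0.056, Slc38a6 -0.18, Slc43a3 -0.068, Slc7a1 -0.28, Cd44 -0.19, Ckb -0.21, Emb -0.16, Flcn -0.32, Fnip1 -0.24, Glul -0.31, Ldha -0.20, Odc1 -0.057, Sat1 -0.31 and Seh1l -0.31. With probe sets averaged, Slc6a8 gave -0.096, Slc1a5 -0.044, Slc38a9 0.025, Slc6a6 0.35, Slc6a9 0.15 and Glul -0.15. Without 1 array the range crossed zero for Ado (-0.21 to 0.14), Cd4 (-0.12 to 0.096), Cd44 (-0.024 to 0.29), Ckb (-0.021 to 0.13), Flcn (-0.18 to 0.19), Glul (-0.10 to 0.11), Pfkp (-0.18 to 0.086), Sat1 (-0.067 to 0.084) and Seh1l (-0.066 to 0.088). It also crossed zero for Slc2a3 (-0.018 to 0.45), Slc36a4 (-0.12 to 0.13), Slc38a1 (-0.23 to 0.058), Slc38a10 (-0.16 to 0.67), Slc38a2 (-0.31 to 0.017), Slc38a6 (-0.010 to 0.27), Slc6a14 (-0.44 to 1.58), Slc6a6 (-0.17 to 0.092), Slc6a8 (-0.27 to 0.44), Slc6a9 (-1.05 to 0.042), Slc7a1 (-0.018 to 0.096), Slc7a11 (-0.19 to 0.27), Slc7a6 (-0.37 to 0.25) and Slc7a9 (-0.23 to 0.18). The cause was not tested.

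The labels do not say that the replicate numbers pair the arrays. Deviations of same-numbered arrays correlated at 0.198 over all tested genes. With the replicate block by limma, the median transporter difference was 0.20, 0 transporters and 0 of all genes were called after Benjamini-Hochberg adjustment, and 11 transporters had an unadjusted p under 0.05.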
